A study of Homo sapiens with 6 samples.

Results

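The 38 genes described here encode the proteins that take up glucose, break it down to pyruvate and lactate, set how much pyruvate enters the mitochondrion, and run most steps of the pentose phosphate pathway. They were chosen by name and all 38 were found among the 28395 genes of the deposited table. The cells were HCC827, an established human lung adenocarcinoma line that grows on an EGFR (epidermal growth factor receptor) with an activating deletion. One group was treated with the vehicle DMSO and the other with 1 μM erlotinib, an inhibitor of the EGFR kinase, each for 24 h, and RNA from 3 libraries a group was sequenced. The comparison asks how the transcripts of 1 EGFR-dependent line change when the receptor is blocked, and nothing in the labels says whether the 3 libraries of a group came from separate cultures, so p-values measure the spread between libraries, which may be technical. The columns are numbered 1 to 3 for DMSO and 4 to 6 for erlotinib. They held 20858083, 24641819 and 21172884 reads on genes in DMSO, and 21944007, 20760204 and 21678395 reads with erlotinib.

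Values are given as signal, the reads of a gene divided by the size factor of its library. A difference between the groups is a log2 fold change, erlotinib against DMSO, from limma on log2(signal + 1), and "adjusted p" is its Benjamini-Hochberg adjusted p over the 14215 genes whose signal averaged at least 10. The values are relative to the other transcripts of the library. In bulk RNA, fewer cells that express a gene and less of its RNA per cell cannot be told apart, and the RNA content per cell was not measured. The libraries carried the markers of their label. KRT7, an epithelial keratin, was the most abundant of 8 epithelial markers, of which 4 fell and 2 rose, at 123686 ± 7643 under DMSO and 79897 ± 2922 under erlotinib (SD, n = 3 each). NKX2-1, the lineage factor of lung epithelium, was 3002 ± 209 under DMSO and 8644 ± 408 under erlotinib, and EGFR itself was 79645 ± 2441 under DMSO and 45538 ± 3759 under erlotinib. Of 7 fibroblast markers, DCN, COL3A1, PDGFRA and COL1A2 had at most 3 reads in every library, and the summed signal was 73.7, 75.2 and 109 under DMSO and 260.2, 223 and 217 under erlotinib. COL1A1, the most abundant of the 7, rose from 77.7 to 216 (log2 fold change 1.47, SE 0.19, adjusted p = 6.78e-07). The 7 leukocyte markers summed to 2787, 2795 and 3172 under DMSO and 3241, 3538 and 3473 under erlotinib, nearly all of it CD68, a lysosomal protein found outside leukocytes too, which rose slightly (log2 fold change 0.23, SE 0.072, adjusted p = 0.00762, and 0.0514 without erlotinib library 5), while AIF1 was at 0 in every library. The 5 endothelial markers summed to 34.0, 15.8 and 20.3 under DMSO and 58.1, 46.5 and 45.9 under erlotinib, with CLDN5 at 0. VWF rose from 3.94 ± 3.31 to 27.4 ± 6.93 (log2 fold change 2.74, SE 0.64, adjusted p = 6.62e-04), and PECAM1, the more abundant of the pair in DMSO, averaged 15.7 ± 3.29 under DMSO and 10.4 ± 2.20 under erlotinib. The part of such transcripts in the results below was not tested.

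Glycolysis splits glucose into pyruvate in the cytosol and yields ATP and NADH on the way. Growing tumour cells often turn much of that pyruvate into lactate and export it, which regenerates the NAD+ that glycolysis needs. The alternative fate is oxidation in the mitochondrion, which the pyruvate dehydrogenase complex opens and the pyruvate dehydrogenase kinases close. The pentose phosphate pathway leaves glycolysis after its first step and makes NADPH and the ribose of nucleotides. Growth factor signalling, MYC and the hypoxia-inducible factors (HIF) are well known to raise transcription of many of these genes.

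Most of the pathway fell with erlotinib. Of the 38 genes, 36 passed the filter on low signal, and 32 of these fell and 4 rose at an adjusted p under 0.05. The 4 that rose were PDK2, PDK4, PGLS and TKT. Among all genes tested, 35.4% fell and 35.3% rose by the same call, 70.7% in either direction. The median log2 fold change was -0.97 over the 36 genes and 0.02 over all genes tested. Falls of at least 1 log2 unit were seen in 18 of the 36, against 10.8% of all genes tested, and rises of that size in 2 of the 36, against 17% of all. The groups did not overlap for 35 of the 36 genes, against 73.6% of all genes tested, and for 31 of them every erlotinib library lay below every DMSO library, against 36.9%. The exception was PDK3. Abundant genes fell more often than the rest: 50.9% of the 5014 genes whose signal averaged at least 1000 fell and 28.5% rose. The 38 genes together took 1.45% ± 0.087 of all reads on genes in DMSO, lowest at 1.35% in library 2, and 0.730% ± 0.020 with erlotinib, and the groups did not overlap.

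**Figure D1:**
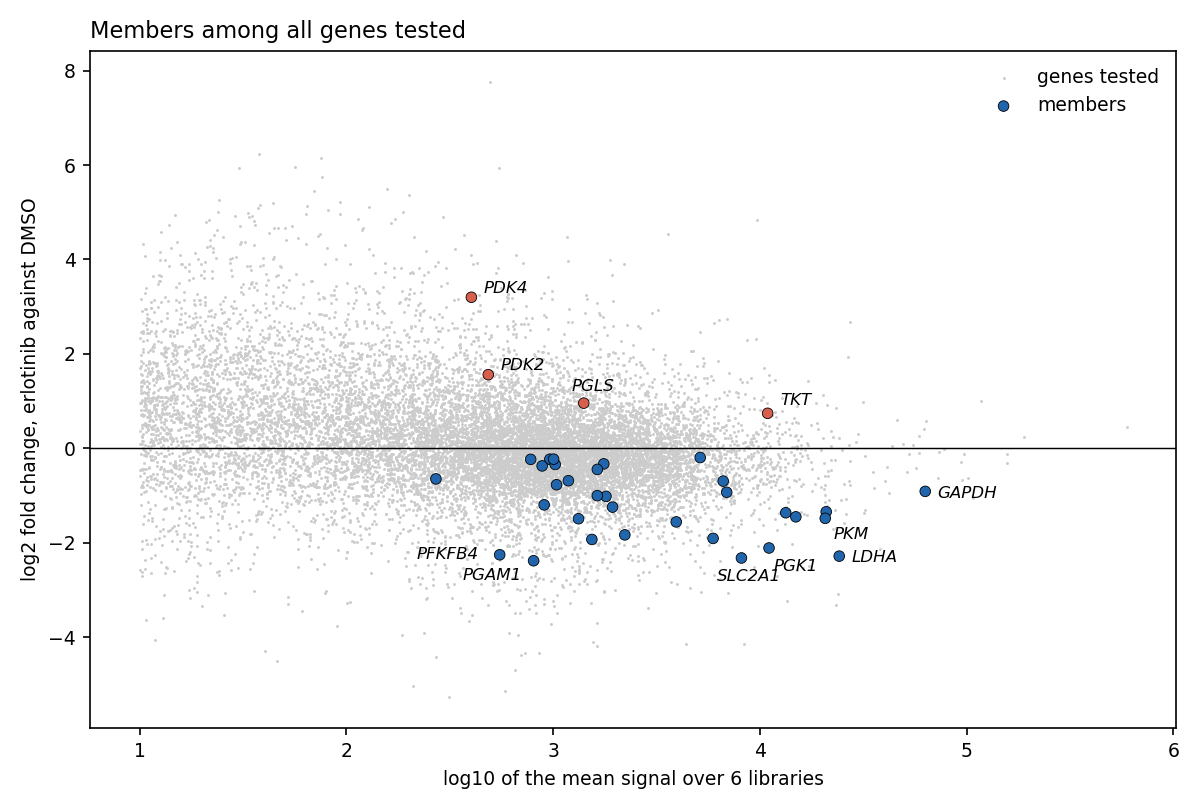
Log2 fold change of each gene tested (y axis) against the log10 of its mean signal over the 6 libraries (x axis). Grey points are the 14215 genes tested, blue points are the 32 members that fell and red points the 4 that rose, and most members lie below 0 across the whole range of signal.

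The remaining pair, SLC2A3 and PFKFB1, had too few reads to pass the filter on low signal and were tested only in the alternative without a filter. SLC2A3, the high-affinity glucose transporter of neurons, averaged 6.97 ± 6.04 under DMSO and 10.7 ± 3.10 under erlotinib. PFKFB1, known from liver and muscle, had 6.40 ± 3.58 and 8.24 ± 4.71. At this depth neither gave a difference that could be told from the spread of its libraries.

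**Figure D2:**
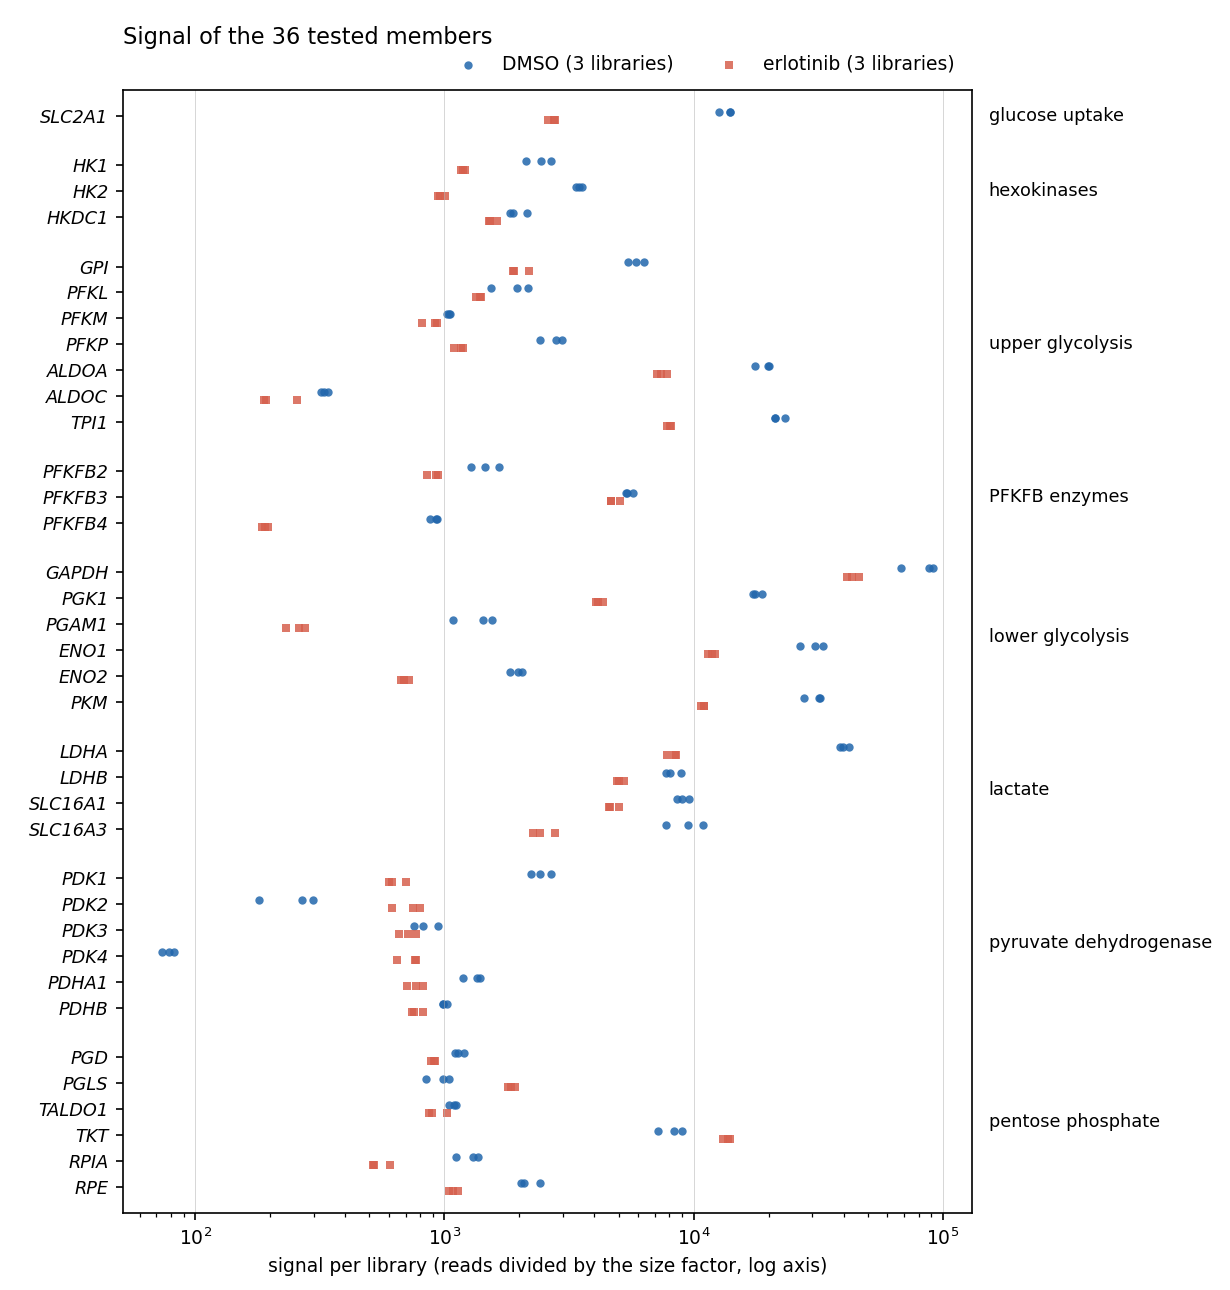
Signal of the 36 tested members in each of the 6 libraries on a log axis, grouped by step of the pathway. Blue circles are the 3 DMSO libraries and red squares the 3 erlotinib libraries, and the ranges of the groups overlap only for PDK3.

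Among the members for glucose uptake only SLC2A1 could be tested, and its fall was one of the deepest. SLC2A1 (GLUT1, chr1:42925353-42958868, GRCh38), the basal glucose transporter of most cells, had a signal of 14026, 12708 and 13992 in the DMSO libraries and 2599.6, 2747 and 2790.4 in the erlotinib libraries. The erlotinib libraries kept 19.98% of the DMSO mean (log2 fold change -2.32, SE 0.065, adjusted p = 4.81e-17), and only 1.63% of all genes tested fell as far. Per kb of exon its level was 2053 per kb in DMSO and 410.1 per kb with erlotinib. The other genes of the SLC2A transporter family tested, which are not members and were less abundant, did not share this fall. SLC2A8, SLC2A10, SLC2A12 and SLC2A13 rose (log2 fold change 0.71, 1.26, 1.82 and 0.55). SLC2A4 and SLC2A6 did neither (log2 fold change 0.41 and -0.27). All of these but SLC2A12 were named after their values were seen.

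All 3 hexokinase genes, whose products trap glucose in the cell as glucose 6-phosphate, fell, by unequal amounts. HK2, the inducible isozyme that many tumours express, had a signal of 3382, 3559.7 and 3469 in the DMSO libraries and 1009.6, 965 and 946 in the erlotinib libraries (log2 fold change -1.83, SE 0.072, adjusted p = 6.36e-15). HK1, the widely expressed isozyme, had 2686, 2129 and 2432 under DMSO and 1188, 1165 and 1211 under erlotinib, or 49.2% of its DMSO mean (log2 fold change -1.02, SE 0.084, adjusted p = 8.32e-10). HKDC1, a hexokinase-like enzyme encoded next to HK1 on chromosome 10 (chr10:69220332-69267552 and chr10:69270000-69401882), had 2145, 1837 and 1892 under DMSO and 1511, 1525 and 1633 under erlotinib and so kept 79.5% (log2 fold change -0.33, SE 0.079, adjusted p = 9.11e-04). All 3 genes were lower in every erlotinib library than in any DMSO library. The call for HKDC1 did not hold when libraries were scaled to their total count (log2 fold change -0.15, adjusted p = 0.0876). With merged exons as the length, signal per kb changed order: HK2 was the highest of the family in DMSO at 586, followed by HKDC1 at 464 and HK1 at 351, and with erlotinib HKDC1 was the highest at 368, with HK1 at 173 and HK2 at 165. The order in DMSO depends on the length, since with the Ensembl canonical transcripts HK1 had the largest share of the family there (36.7%, against 33.9% for HK2 and 29.4% for HKDC1), while the order with erlotinib was the same under the 3 lengths tried.

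The 7 genes of upper glycolysis, from glucose 6-phosphate to the triose phosphates, all fell. GPI, which turns glucose 6-phosphate into fructose 6-phosphate, had a signal of 6330.0, 5453 and 5859.9 in the DMSO libraries and 1907, 2195 and 1893 in the erlotinib libraries (log2 fold change -1.56, SE 0.076, adjusted p = 1.91e-13). ALDOA, the main aldolase outside liver and brain, had 19944, 17715 and 19995 under DMSO and 7394, 7827 and 7155 under erlotinib, or 38.8% of the DMSO mean (log2 fold change -1.36, SE 0.066, adjusted p = 1.83e-13). TPI1, which interconverts the pair of triose phosphates, had 23242, 21212 and 21128 under DMSO and 8016, 8147 and 7815 under erlotinib, or 36.6% (log2 fold change -1.45, SE 0.063, adjusted p = 2.75e-14). These falls are well beyond the spread between libraries. ALDOC, the brain-type aldolase, was far less abundant, at 126 per kb in DMSO and 81.2 per kb with erlotinib against 5019 per kb in DMSO and 1948 per kb with erlotinib for ALDOA, and fell less (log2 fold change -0.65, SE 0.14, adjusted p = 3.98e-04). TPI1 has a near-identical copy on chromosome 1, aligned over 91.5% of its transcript at 98.1% identity, and overlaps SPSB2, whose signal was 12.3% of that of TPI1 and rose (log2 fold change 1.80). An alternate contig of chromosome 19 holds 21.2% of the GPI transcript at 99.9% identity. Overlaps here and below are of whole gene spans, introns included, and it was not checked whether exons overlap. The strand counted is not given in the sources used here, so reads of genes whose exons overlap could not be told apart.

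Phosphofructokinase, the committing step of glycolysis, is built from subunits of 3 genes, and these responded by different amounts. PFKP, the platelet-type subunit, had a signal of 2972, 2411 and 2803 in the DMSO libraries and 1188, 1162 and 1092 in the erlotinib libraries (log2 fold change -1.24, SE 0.083, adjusted p = 2.86e-11). PFKL, the liver-type subunit, had 2176, 1544 and 1965 under DMSO and 1392, 1398 and 1342 under erlotinib, or 72.7% of the DMSO mean (log2 fold change -0.45, SE 0.10, adjusted p = 3.91e-04). PFKM, the muscle-type subunit, had 1024, 1041 and 1054 under DMSO and 817, 933 and 915 under erlotinib, or 85.4% (log2 fold change -0.23, SE 0.086, adjusted p = 0.0221). The fall of PFKP was thus the largest of the 3, and the log2 ratio of PFKP to PFKM signal was 1.39 ± 0.16 in DMSO and 0.37 ± 0.15 with erlotinib. The call for PFKM was lost with total count scaling (adjusted p = 0.612) and without DMSO library 3 or erlotinib library 4 (adjusted p = 0.0543 and 0.142). PFKM also overlaps SENP1, whose signal was 93.4% of its own and whose log2 fold change was -0.68.

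The PFKFB enzymes make and remove fructose 2,6-bisphosphate, the strongest allosteric activator of phosphofructokinase. PFKFB4 fell sharply, with a signal of 925, 874 and 939 in the DMSO libraries and 190.1, 196 and 185 in the erlotinib libraries (log2 fold change -2.25, SE 0.11, adjusted p = 1.46e-13). PFKFB2, which is known from heart, had 1460.0, 1656 and 1277 under DMSO and 924, 850.4 and 944 under erlotinib, or 61.9% of the DMSO mean (log2 fold change -0.68, SE 0.094, adjusted p = 1.56e-06), though it overlaps YOD1, whose signal was as high as its own and fell by a like amount (log2 fold change -0.68). PFKFB3, the isozyme with the highest kinase activity, had 5379, 5700.3 and 5399.7 under DMSO and 4646, 5082 and 4678 under erlotinib, or 87.4% of the DMSO mean (log2 fold change -0.19, SE 0.065, adjusted p = 0.0115). Its difference was small beside that of PFKFB4. The call for PFKFB3 was lost with total count scaling (adjusted p = 0.842) and without erlotinib library 4 or 6 (adjusted p = 0.0707 and 0.056). The log2 ratio of PFKFB4 to PFKFB3 signal was -2.59 ± 0.10 in DMSO and -4.65 ± 0.043 with erlotinib.

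**Figure D3:**
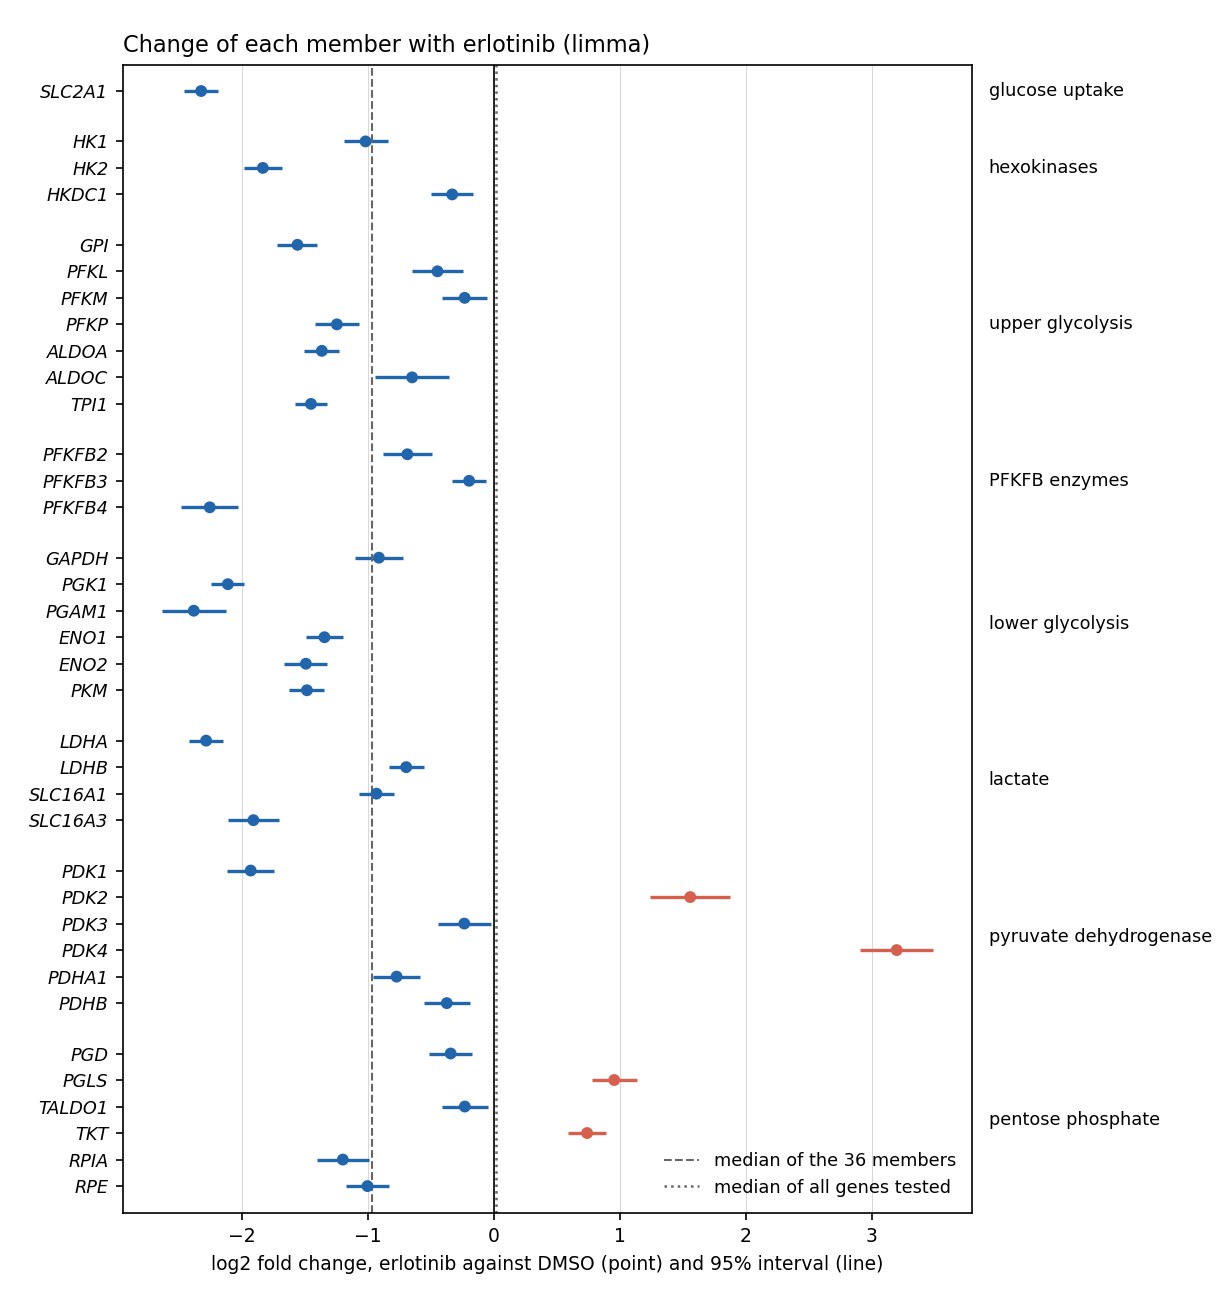
Log2 fold change of the 36 tested members, erlotinib against DMSO (points), with 95% intervals from limma (lines), grouped by step. Blue marks falls and red marks rises, the dashed line is the median of the members at -0.97, and the dotted line is the median of all genes tested at 0.02.

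All 6 genes of lower glycolysis fell, 5 of them by more than 1 log2 unit. PGK1 (chrX:78104248-78129295), the first ATP-yielding enzyme of the pathway, had a signal of 17395, 18838 and 17716 in the DMSO libraries and 4124, 4316 and 4049 in the erlotinib libraries (log2 fold change -2.11, SE 0.062, adjusted p = 9.60e-17). PGAM1, which moves the phosphate of 3-phosphoglycerate, had a signal of 1552, 1079 and 1425 in the DMSO libraries and 276, 261 and 232 in the erlotinib libraries (log2 fold change -2.38, SE 0.12, adjusted p = 4.52e-13), the largest fall of all 36 genes. No library of one group came near the other group for either gene. PGAM1 has 3 near-identical copies elsewhere in the genome, on chromosomes 12 and X, with up to 99.6% identity over at least 93.9% of the transcript. Only uniquely mapped reads were counted, so the signal of PGAM1 may hold a part of its reads and its level is uncertain.

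ENO1 encodes the main enolase and PKM the pyruvate kinase that tumours express, and both were among the members with the highest signal per kb. ENO1 had a signal of 32935, 26685 and 30581 in the DMSO libraries and 11448, 12154 and 11826 in the erlotinib libraries (log2 fold change -1.34, SE 0.072, adjusted p = 8.54e-13). PKM had a signal of 32090.1, 27722 and 31757 in the DMSO libraries and 10997, 11002 and 10702 in the erlotinib libraries (log2 fold change -1.48, SE 0.067, adjusted p = 5.42e-14). Both kept between 35% and 40% of their DMSO means (35.7% for PKM, 39.3% for ENO1). ENO2, the neuronal enolase, had 1984, 1834 and 2054 under DMSO and 723, 672 and 691 under erlotinib, or 35.5% (log2 fold change -1.49, SE 0.082, adjusted p = 1.21e-12). GAPDH, which is often used as a reference gene, had a signal of 91459, 67963 and 88306 in the DMSO libraries and 43383, 46091 and 41292 in the erlotinib libraries (log2 fold change -0.91, SE 0.09, adjusted p = 1.38e-08). It fell to 52.8% of its DMSO mean and remained the member with the highest signal per kb, at 34464 per kb in DMSO and 18192 per kb with erlotinib. GAPDH had 28 partial or diverged copies in the genome, none above 95.9% identity. The log2 ratio of PGK1 to GAPDH signal was -2.19 ± 0.29 in DMSO and -3.39 ± 0.034 with erlotinib, so that a value of PGK1 set against GAPDH would show a difference of -1.20 in place of -2.11.

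The lactate end of the pathway fell in all 4 genes. LDHA (chr11:18394563-18408425), the lactate dehydrogenase subunit that favours lactate production, had a signal of 41982, 39632 and 38846 in the DMSO libraries and 8425, 8527 and 7808 in the erlotinib libraries (log2 fold change -2.28, SE 0.063, adjusted p = 4.25e-17). LDHB, the subunit of oxidative tissues, had a signal of 7728, 8894 and 8047 in the DMSO libraries and 5277, 4935 and 5012 in the erlotinib libraries (log2 fold change -0.69, SE 0.067, adjusted p = 1.01e-08). LDHA kept 20.6% of its DMSO mean and LDHB kept 61.7%. The log2 ratio of LDHA to LDHB signal was 2.29 ± 0.14 in DMSO and 0.70 ± 0.078 with erlotinib, and no library of one group overlapped the other. SLC16A3 (MCT4), the lactate exporter of glycolytic cells, had a signal of 10915, 7751 and 9502 in the DMSO libraries and 2276, 2774 and 2412 in the erlotinib libraries (log2 fold change -1.91, SE 0.10, adjusted p = 3.34e-13). SLC16A1 (MCT1), which carries lactate in either direction, had 9002, 9617 and 8583 under DMSO and 4597, 5038 and 4636 under erlotinib, or 52.5% of the DMSO mean (log2 fold change -0.93, SE 0.066, adjusted p = 8.56e-11). SLC16A3 overlaps CSNK1D, a casein kinase gene with about the same signal and a log2 fold change of 0.42, so some of their reads may be shared.

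The pyruvate dehydrogenase kinases changed in opposite directions. These 4 enzymes phosphorylate and shut the complex that turns pyruvate into acetyl-CoA. PDK1, a HIF target, had a signal of 2234, 2673 and 2409 in the DMSO libraries and 705, 617 and 597 in the erlotinib libraries (log2 fold change -1.93, SE 0.09, adjusted p = 8.63e-14). PDK4 (chr7:95583499-95596516), the isozyme induced by fasting and by FOXO factors, had a signal of 78.3, 73.4 and 82.4 in the DMSO libraries and 760.4, 772 and 647 in the erlotinib libraries (log2 fold change 3.20, SE 0.14, adjusted p = 2.88e-14). The erlotinib libraries held 9.31 times the DMSO mean of PDK4, the largest rise of the 36 genes. PDK2, the broadly expressed isozyme, had a signal of 297, 180.2 and 268 in the DMSO libraries and 748, 801 and 619 in the erlotinib libraries (log2 fold change 1.56, SE 0.15, adjusted p = 1.22e-08), or 2.91 times the DMSO mean. DMSO library 2 had the lowest signal of PDK2 and the highest of PDK1. Within each library the log2 ratio of PDK4 to PDK1 signal was -4.95 ± 0.19 in DMSO and 0.18 ± 0.12 with erlotinib, and that of PDK2 to PDK1 was -3.32 ± 0.51 in DMSO and 0.17 ± 0.18 with erlotinib.

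PDK3 was the least changed of the kinases. Its signal was 824, 946 and 757 in the DMSO libraries and 716, 657 and 771 in the erlotinib libraries (log2 fold change -0.23, SE 0.10, adjusted p = 0.0453). The highest erlotinib library lay above the lowest DMSO library. The call was lost with edgeR (adjusted p = 0.0534), with DESeq2 (0.0562), without a filter on low signal (0.0568), with total count scaling (0.651), and without DMSO library 1 or 2 or erlotinib library 4 or 5 (0.0604 to 0.197). Of the complex itself, PDHA1, its catalytic E1 alpha subunit, had 1353, 1389 and 1188 under DMSO and 711, 770.2 and 821 under erlotinib, or 58.6% of the DMSO mean (log2 fold change -0.77, SE 0.091, adjusted p = 1.80e-07). PDHB, its E1 beta subunit, had 986, 1021 and 987 under DMSO and 754, 739 and 822 under erlotinib, or 77.3% (log2 fold change -0.37, SE 0.087, adjusted p = 7.03e-04), a call that was lost with total count scaling (adjusted p = 0.0578).

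The pentose phosphate genes divided, with 4 lower and 2 higher of 6. TKT, the transketolase that links the pathway back to glycolysis, rose from a signal of 9029, 7196 and 8317 in DMSO to 13718, 14022 and 13142 with erlotinib (log2 fold change 0.74, SE 0.074, adjusted p = 1.55e-08). PGLS, the lactonase of the oxidative branch, rose from 1044, 845 and 986 to 1801, 1917 and 1846 (log2 fold change 0.96, SE 0.086, adjusted p = 3.40e-09). Every erlotinib library was above every DMSO library for both genes. RPIA, which makes ribose 5-phosphate, fell from 1112, 1371 and 1300.4 to 524, 606 and 516 (log2 fold change -1.20, SE 0.10, adjusted p = 9.86e-10). RPE, which makes xylulose 5-phosphate, had 2037, 2414 and 2097 under DMSO and 1082, 1137 and 1043 under erlotinib, or 49.8% of the DMSO mean (log2 fold change -1.002, SE 0.082, adjusted p = 7.20e-10). RPE shares 54.8% of its transcript at 96.97% identity with the retrogene RPEL1 and overlaps KANSL1L, whose signal was 36.6% of its own and rose (log2 fold change 1.72), so its level is uncertain.

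PGD and TALDO1 changed little. PGD, the second NADPH-yielding enzyme of the oxidative branch, had 1204, 1130.2 and 1100.3 under DMSO and 916, 883 and 909 under erlotinib, or 78.9% of the DMSO mean (log2 fold change -0.34, SE 0.083, adjusted p = 9.90e-04). TALDO1, the transaldolase, had 1089, 1047 and 1114 under DMSO and 892, 1021 and 866 under erlotinib, or 85.5% (log2 fold change -0.23, SE 0.088, adjusted p = 0.0253). With total count scaling neither passed (adjusted p = 0.0828 for PGD and 0.624 for TALDO1), which leaves 2 lower and 2 higher of the 6. TALDO1 also missed the threshold without DMSO library 1 or 3 or erlotinib library 4 or 6 (adjusted p between 0.0522 and 0.125). The signal of the 6 genes together, not divided by length, went from 14811 ± 761 to 18947 ± 632, mostly TKT. Such a sum gives long genes more weight. Per kb of merged exons TKT went from 861 to 1434 and PGLS from 337 to 653. RPIA went from 696 to 303 per kb and RPE from 620 to 309, so the sum does not show a rise per kb. The log2 ratio of TKT to RPIA signal was 2.70 ± 0.32 in DMSO and 4.64 ± 0.093 with erlotinib.

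By the rule for named genes, the 3 with the largest change among the genes of the pentose phosphate pathway outside the 38 were PRPS1, H6PD and RPEL1. PRPS1, which turns ribose 5-phosphate into the precursor of nucleotides, fell from 2796 ± 170.0 to 742 ± 33.0 (log2 fold change -1.91, SE 0.079, adjusted p = 1.37e-14). H6PD, which runs the first oxidative steps inside the endoplasmic reticulum, rose from 1126 ± 45.5 to 3881 ± 86.8 (log2 fold change 1.79, SE 0.071, adjusted p = 7.08e-15). RPEL1 had a log2 fold change of -1.04, close to the -1.002 of RPE, with which it shares sequence. Of the 7 tested genes of this list 5 fell, 1 rose and 1 did neither, while 35.4% of all genes tested fell and 35.3% rose.

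Isozymes of one step fell by different amounts, and their shares differed between the groups at several steps. Shares were taken within each library from the signal per kb of merged exons, and with 3 libraries against 3 the smallest two-sided p an exact permutation test can give is 0.1, so no share can pass 0.05. Apart from the shares of HK1 and of the enolases, each share below reached that smallest value and had no overlap between the groups. The share of LDHA in lactate dehydrogenase signal was 72.9%, 68.8% and 70.5% in DMSO and 44.1%, 46.1% and 43.5% with erlotinib. Whether LDHA or LDHB was the larger with erlotinib depends on the length used, since the mean share of LDHA was 44.6% with merged exons and 52.7% with the longest transcript. The share of HK2 among the hexokinases went from 41.9% ± 2.92 to 23.3% ± 1.11, and that of HKDC1 from 33.1% ± 1.30 to 52.2% ± 1.24. The difference in the share of HK1 was within the spread of the libraries (exact permutation p = 0.7, 25.0% ± 1.83 to 24.5% ± 0.138). PFKP went from 49.6% ± 0.171 to 34.8% ± 1.33 of phosphofructokinase signal, PFKFB4 from 12.5% ± 0.882 to 3.43% ± 0.0802 of PFKFB signal, and SLC16A3 from 41.4% ± 5.14 to 26.4% ± 1.04 of the summed signal of SLC16A1 and SLC16A3, a pair that leaves out SLC16A7, a further carrier of lactate that is not among the 38 and is described below.

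With merged exons and with the longest transcripts the widest shift was among the pyruvate dehydrogenase kinases, while with the Ensembl canonical transcripts it was that of LDHA (-25.4 percentage points, against 20.2 for PDK4 and -17.8 for PDK1). The share of PDK1 was 55.9%, 63.5% and 59.5% in DMSO and 12.1%, 10.5% and 11.8% with erlotinib. The share of PDK4 was 6.40%, 5.70% and 6.65% in DMSO and 42.6%, 43.0% and 41.9% with erlotinib. PDK1 thus went from the largest to nearly the smallest share of the family, while PDK2 went from 16.6% ± 4.44 to 35.0% ± 1.88 and PDK3 from 17.5% ± 1.62 to 11.0% ± 1.80. The summed signal per kb of merged exons of the 4 kinases went from 275 ± 7.36 to 376 ± 31.3. It was the one step among the 9 families whose sum was higher with erlotinib. That direction depends on dividing by length. Before it, PDK1 went from 2439 to 640, a larger difference than the rises of PDK2 (248 to 723) and PDK4 (78.0 to 726) together. The shares too depend on the length assumed for each gene: with the Ensembl canonical transcripts PDK3 had the largest share in both groups (64.2% ± 3.00 to 47.1% ± 4.60) and PDK4 went from 2.89% ± 0.355 to 23.1% ± 1.74. The directions of all 4 shares were the same under the 3 lengths tried. The share of ALDOC among the aldolases went from 2.46% ± 0.172 to 4.01% ± 0.728 and that of ENO2 among the enolases from 7.38% ± 0.473 to 6.70% ± 0.421 (exact permutation p = 0.2 for the latter), while the summed signal per kb of the aldolases and of the enolases was 39.4% and 39.0% of DMSO.

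**Figure D4:**
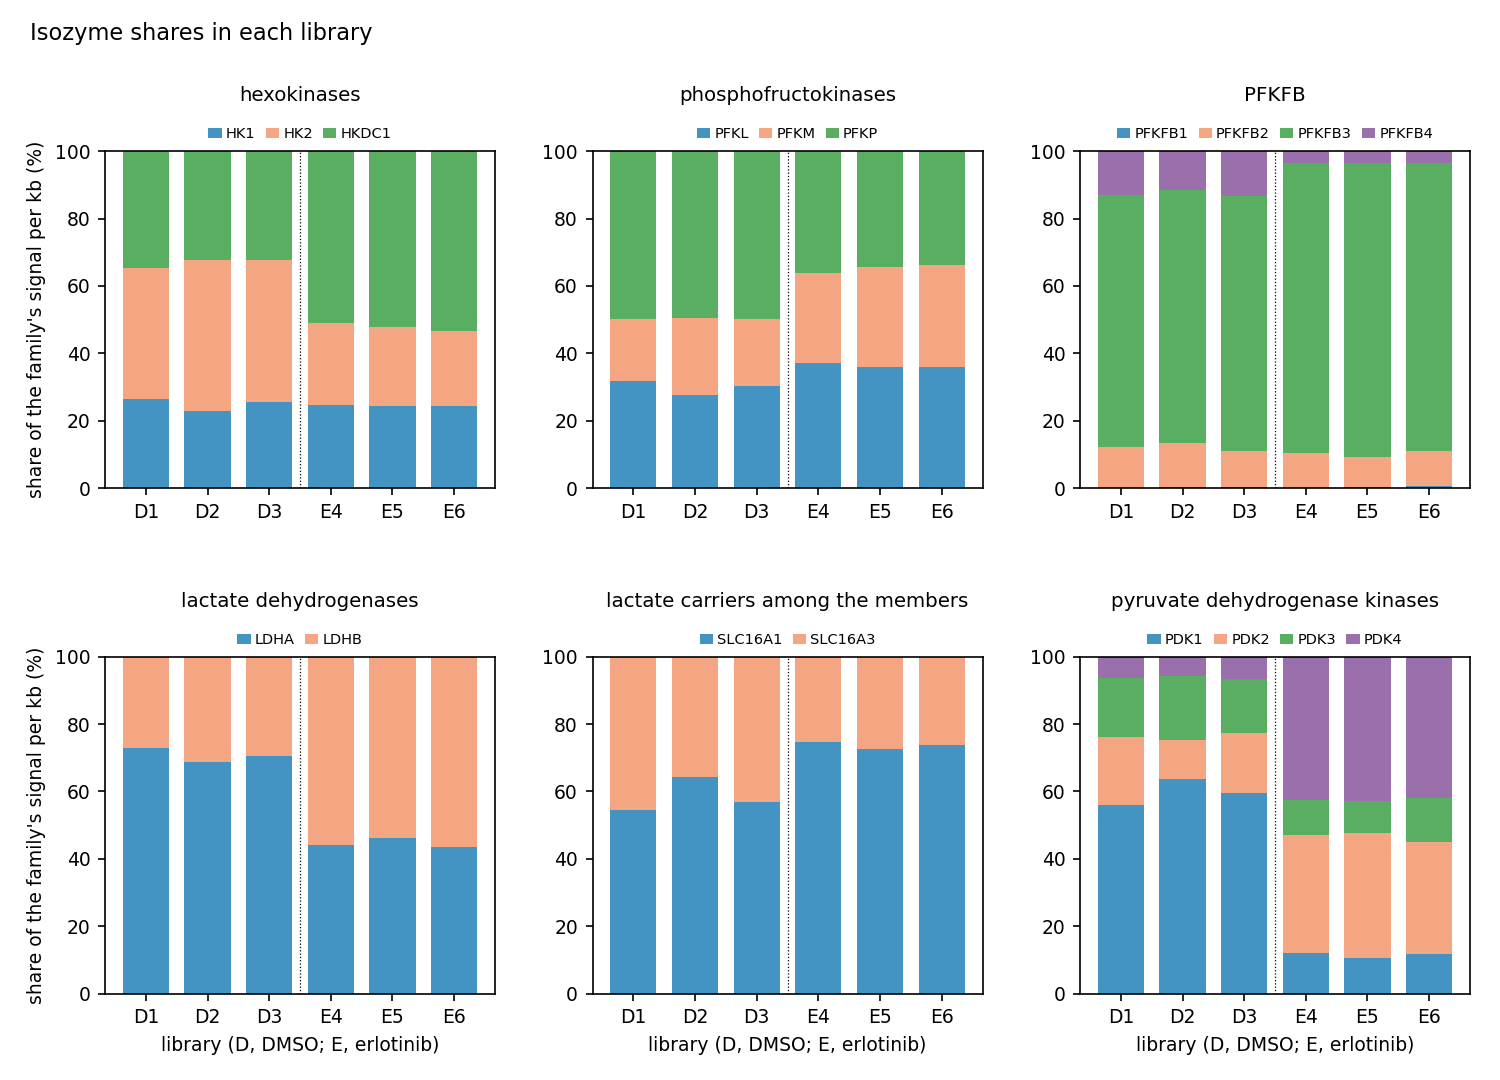
Share of each isozyme in the summed signal per kb of its family, in percent, for the DMSO libraries 1 to 3 (D) and the erlotinib libraries 4 to 6 (E), with signal divided by merged exon length. Shares of PDK1, LDHA, HK2, PFKP, PFKFB4 and SLC16A3 are smaller in each erlotinib library than in any DMSO library, and the share of PDK4 is larger.

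The neighbouring parts of metabolism did not move as one. Beside the counts of each list, 35.4% of all genes tested fell and 35.3% rose. Among 17 tested genes listed around glycolysis outside the 38, 3 fell and 9 rose. The list holds transporters and other genes beside enzymes of the pathway, so its counts do not describe those enzymes alone. SLC2A8, SLC2A10, SLC2A12 and SLC2A13, given above, SLC16A7, MINPP1 and EMB rose, as did the enzyme genes PGAM2 and ENO3. Of these MINPP1, EMB and ENO3 were named after their values were seen. The 3 that fell, named after their values were seen, were PGAM5, a mitochondrial phosphatase, TIGAR, which lowers fructose 2,6-bisphosphate, and BPGM, which makes 2,3-bisphosphoglycerate (log2 fold change -1.55, -1.10 and -0.44). SLC16A7 (MCT2), a high-affinity carrier of pyruvate and lactate, rose from 1006 ± 109 to 3843 ± 81.1 (log2 fold change 1.94, SE 0.081, adjusted p = 1.54e-14). SLC2A12, a glucose transporter, and PGAM2, the muscle mutase, rose from far lower signals (log2 fold change 1.82 and 1.81, adjusted p = 1.82e-08 and 1.89e-08). Of 4 tested gluconeogenesis genes 2 rose, among them PCK2, the mitochondrial PEP carboxykinase (log2 fold change 0.96, SE 0.10, adjusted p = 4.81e-08). The other that rose was FBP1, fructose 1,6-bisphosphatase, named after its values were seen (log2 fold change 2.69, SE 0.36, adjusted p = 1.26e-06), and the other 2 did neither.

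In the lists of routes that draw on glycolysis, more genes fell than rose. Of all genes tested 35.4% fell and 35.3% rose, and of those with a mean signal of at least 1000, 50.9% fell and 28.5% rose. Whether these lists differ from those shares was not tested. Of 20 tested genes of its side branches (serine, hexosamine, glycerol and glycogen) 14 fell and 2 rose, with a median log2 fold change of -0.53. The 2 that rose, named after their values were seen, were the glycogen phosphorylase PYGB (log2 fold change 0.37) and GFPT2 of the hexosamine pathway (0.46, adjusted p = 0.039), whose call was lost without a filter and without any one library but erlotinib library 4 (adjusted p = 0.0563 to 0.245). PSAT1 and SHMT1 of serine and one-carbon metabolism and UAP1 of the hexosamine pathway changed most (log2 fold change -1.65, -1.60 and -1.54). Of the 16 genes of the tricarboxylic acid cycle 11 fell and the other 5 did neither (median -0.50). The largest falls were those of IDH3A (signal of 1372, 1650.3 and 1457 in the DMSO libraries and 443, 528 and 391 in the erlotinib libraries, log2 fold change -1.72, SE 0.11, adjusted p = 1.04e-11), FH and SDHB (log2 fold change -1.03 and -0.79). With total count scaling 10 of these fell and 2 rose. Of the 9 genes around pyruvate entry 5 fell and 2 rose, and DLD and PDHX, both of the complex, were among those that fell (log2 fold change -0.80 and -0.57). The phosphatases that reverse the kinases divided: PDP2 fell (log2 fold change -1.04, SE 0.079, adjusted p = 2.39e-10), while the other catalytic subunit, PDP1, rose (log2 fold change 0.53, SE 0.084, adjusted p = 9.54e-06), and so did the regulatory subunit PDPR (log2 fold change 0.48, SE 0.075, adjusted p = 7.91e-06), this last pair being named after their values were seen.

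The list of HIF targets outside glycolysis had a median close to that of the 38 genes. Of 18 tested, 13 fell and 2 rose, with a median of -1.02, and with total count scaling 13 fell and 4 rose. Among all genes tested, 35.4% fell and 35.3% rose in the main fit. Of those with a mean signal of at least 1000, 50.9% fell and 28.5% rose. The 2 that rose, named after their values were seen, were MXI1, a MYC antagonist (log2 fold change 1.49), and the histone demethylase KDM3A (0.28), whose call was lost without DMSO library 1 or 3 or erlotinib library 6. ANGPTL4, a secreted lipase inhibitor, had a signal of 493, 475 and 575 in the DMSO libraries and 71.1, 89.1 and 88.0 in the erlotinib libraries (log2 fold change -2.63, SE 0.15, adjusted p = 3.03e-12). DDIT4, an inhibitor of mTORC1, kept a signal of 5627 ± 129 of 23093 ± 1740 (log2 fold change -2.03, SE 0.066, adjusted p = 3.59e-16), and BHLHE40, a transcriptional repressor, had a log2 fold change of -2.001. CA9, a classic HIF target, had at most 3 reads in every library. Of 17 tested regulators of the pathway 8 fell and 3 rose, a split that total count scaling turned to 5 and 9. EPAS1 (HIF-2 alpha) fell (log2 fold change -1.12, SE 0.067, adjusted p = 5.05e-12), while TXNIP, which restrains glucose uptake, rose (log2 fold change 1.59, SE 0.073, adjusted p = 7.02e-14). HIF1A, picked out after its values were seen, had a signal of 9284, 9598 and 8719.7 in the DMSO libraries and 4276, 4410.3 and 4679 in the erlotinib libraries (log2 fold change -1.05, SE 0.065, adjusted p = 9.39e-12). MYC, also picked out after its values were seen, was 13421 ± 716 under DMSO and 10961 ± 268 under erlotinib. Its fall in the main fit was smaller (log2 fold change -0.29, SE 0.063, adjusted p = 3.32e-04). All 11 tested genes of ERK output fell, such as DUSP6 (log2 fold change -4.33) and ETV5 (-4.38), and so did all 10 proliferation genes, such as MKI67 (-2.76), with medians of -3.23 and -2.77. With total count scaling 10 of the 11 ERK output genes and all 10 proliferation genes fell. What part HIF or lower proliferation has in the fall of the glycolysis genes was not tested.

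**Figure D5:**
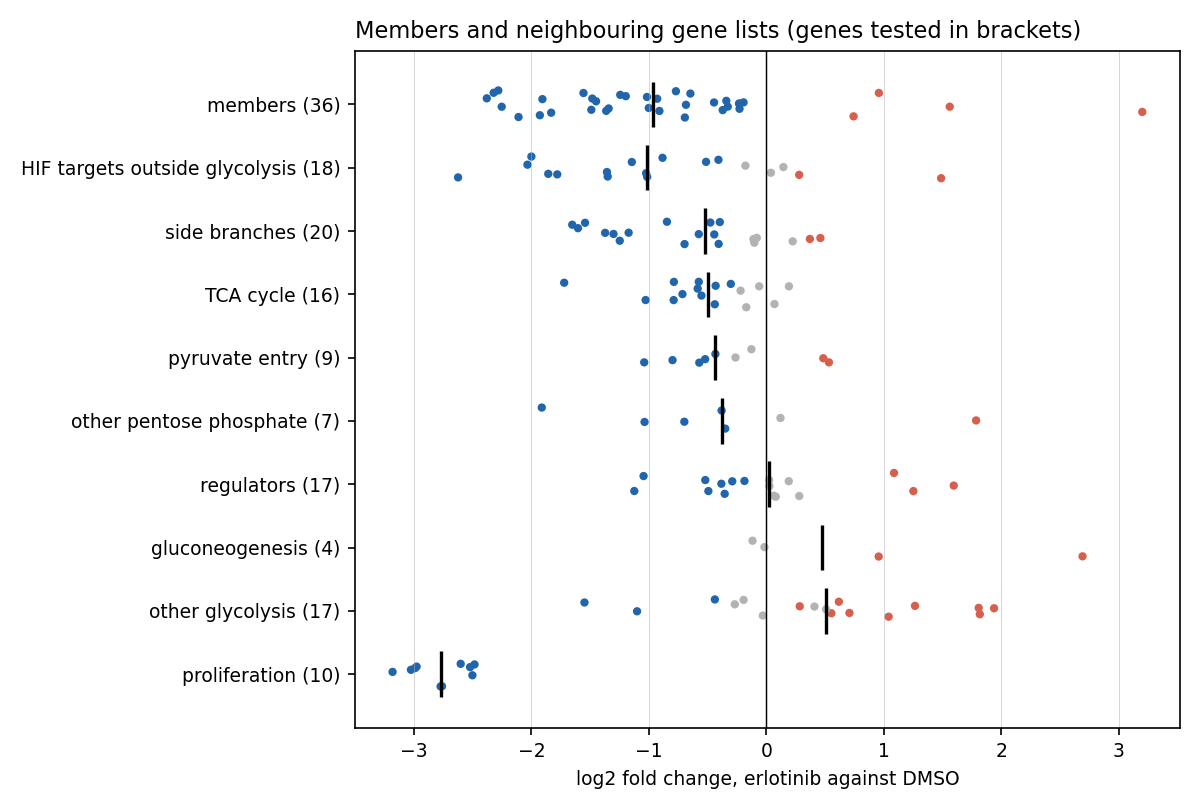
Log2 fold change of each tested gene of the members and of 9 neighbouring lists, with the number of genes tested in brackets. Blue points fell, red points rose and grey points did not pass the threshold. Black bars are the medians, from -2.77 for proliferation and -0.97 for the members to 0.51 for the list labelled other glycolysis, which also holds transporters.

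The promoters of these genes are shown because many members fell together. The 250 bases before the start of 1 transcript a gene were read from RefSeq (GRCh38.p14) for the 35 members that matched, and searched on both strands for the core of the hypoxia response element, ACGTG or GCGTG. For 25 of the 35 this window ended at the outer start of the gene, and for the other 10 it lay inside the gene. The core was present in 17 of 35 (48.6%), against 43.1% of all 27305 promoters. The windows of the members were richer in G and C (median 68.4%, against 58.0% for all promoters), and these shares were not adjusted for it. ACGTG alone was present in 11 of 35 (31.4%) against 18.7%, and the E-box CACGTG, which holds ACGTG on each strand, in 4 of 35 (11.4%) against 6.49%. Of the 30 members that fell 17 held a core, 14 of the 21 whose window ended at the gene's outer start and 3 of the 9 whose window lay inside the gene. Of the 4 that rose, all with windows of the former kind, 0 did. The share of all promoters was not split by kind of window, so these counts have no background of their own. The forkhead letters GTAAACA were in 0 of 35 and in 2.98% of all. Letters in a window are no evidence of binding, and members with deep falls such as SLC2A1 and PDK1 held no core in this window, which for both ended at the gene's outer start. The sequences are those of LDHA (chr11:18394313-18394562, plus strand, 5 matches), PGK1 (chrX:78103998-78104247, plus strand, 3 matches) and, as a gene that rose, PDK4 (chr7:95596517-95596766, minus strand, 0 matches). Capitals mark the core on either strand, and CACGTG counts as 2 matches.
LDHA: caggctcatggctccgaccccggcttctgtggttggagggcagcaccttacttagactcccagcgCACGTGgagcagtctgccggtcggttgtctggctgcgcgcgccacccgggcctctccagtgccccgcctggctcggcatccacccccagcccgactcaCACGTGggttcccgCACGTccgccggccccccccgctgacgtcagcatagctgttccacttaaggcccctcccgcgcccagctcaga
PGK1: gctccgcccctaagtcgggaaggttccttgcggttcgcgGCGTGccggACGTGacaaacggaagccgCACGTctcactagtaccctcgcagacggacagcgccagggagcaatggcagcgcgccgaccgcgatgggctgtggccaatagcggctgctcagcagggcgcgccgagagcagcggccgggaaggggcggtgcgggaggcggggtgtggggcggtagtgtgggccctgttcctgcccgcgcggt
PDK4: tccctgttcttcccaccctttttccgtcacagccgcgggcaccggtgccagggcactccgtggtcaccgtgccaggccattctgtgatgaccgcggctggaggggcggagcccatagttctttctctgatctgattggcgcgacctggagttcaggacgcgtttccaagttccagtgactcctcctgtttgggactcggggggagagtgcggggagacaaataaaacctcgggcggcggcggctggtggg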

How the data were processed

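Paired-end reads were aligned by the authors to GRCh38 using Bowtie2 2.3.4, an aligner that leaves reads across introns unsplit, and they counted uniquely mapped reads with featureCounts 1.6.3. DESeq2 1.18.1 is also in the submitters' processing notes. The deposited signal is reads divided by 1 size factor per library (0.882 to 1.08). Dividing by each library's step gave whole reads, within 0.01, for 100% of values.

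limma 3.58.1 (R 4.3.3) was fitted with a variance trend on log2(signal + 1) for the 14215 genes averaging at least 10, treatment as the only term, two-sided, Benjamini-Hochberg, threshold 0.05. Fold changes of low genes are understated on this scale. Limma, edgeR and DESeq2 were tested on 1 simulated data set, where the share of false calls among all calls was somewhat above the threshold with each, lowest with limma. Only 196 of its 14236 tested genes were changed, with 1 dispersion for all genes, while 70.7% of genes were called in these data. That share and order of tools therefore need not hold here. Alternatives were TMM and total count scaling, pseudocounts of 0.1 and 10, no filter, at least 10 in every library, edgeR 4.0.16 (quasi-likelihood, TMM) and DESeq2 1.42.0 on the recovered reads, and each library left out. On the recovered reads edgeR called 4941 genes lower and 5085 higher, and 31 and 4 of the members.

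Replicates differed by more than sampling noise (4.13 to 24.3 for the chi-square over its degrees of freedom). Signal per kb used merged exons of GENCODE 44, the longest or the Ensembl canonical transcript, the last chosen after seeing the data. Copies were searched with minimap2 2.31-r1302 (near-identical: at least 90% of the transcript at 97% identity). Figures used matplotlib 3.10.9. The 38 members and all lists were chosen with earlier results of these data known. From each neighbour list the 3 genes with the largest change past the threshold and a CPM of at least 5 are named. Some single genes are not reported here, but they stay in the counts and medians of their lists. All columns were used, and 475 genes without a symbol stayed in the fit.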

Additional observations from a re-analysis of the deposited data

How the results depend on the processing

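Over 14 alternatives the members that fell numbered 25 to 32 and those that rose 4, while the genes that fell numbered 3955 to 5140 and those that rose 4358 to 6156. Total count scaling gave both extremes of the balance: it moved the median of all genes to 0.19, so that 39.1% of calls were falls against 50.1%, and the median of the members to -0.79, with 25 falls and 4 rises. With each library left out in turn, 28 to 31 members fell and 4 rose. Of 504 member values, 482 kept direction and call, 22 kept direction and lost the call, and 0 turned. The losses were in HKDC1, PDHB, PDK3, PFKFB3, PFKM, PGD and TALDO1, and the cause was not tested. These had the smallest absolute log2 fold changes of the members in the main fit, from -0.19 for PFKFB3 to -0.37 for PDHB. Each of them lost its call with total count scaling. The other 29 members kept their call in all 14. No paired analysis was possible because the columns carry the numbers 4 to 6 for erlotinib, which the labels do not give, so no DMSO library could be tied to an erlotinib library. DMSO library 2 stood apart from the others of its group (chi-square per degree of freedom 24.3 and 15.2, against 7.96 between DMSO libraries 1 and 3), and without it 31 members fell and 4 rose. Depth limits SLC2A3 and PFKFB1.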

Other observations

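The libraries of a group differed in how often they held the lowest or highest value of these genes. Among the 36 tested members, DMSO library 2 had the lowest signal of its group for 19 (52.8%, against 36.0% of all genes tested) and DMSO library 1 the highest for 18 (50.0%, against 33.0%). Erlotinib library 6 was the lowest of its group for 19 (52.8%, against 35.2%) and erlotinib library 5 the highest for 21 (58.3%, against 34.4%). GAPDH, PGAM1, SLC16A3 and PFKL had their lowest DMSO signal in library 2, at 67963, 1079, 7751 and 1544, and each stayed above every erlotinib library there.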
